A study of Mus musculus with 9 samples.

Results

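Back skin that had been tape-stripped and then treated with cream containing nano graphene oxide (NGO) was compared with back skin that had not been stripped. The comparison took the 3 libraries labelled as stripped with NGO cream and the 3 labelled as unstripped with control cream, 6 of the 9 libraries of the series, and covered all genes. It was chosen by these labels alone and not by any measured value. The other 3 libraries, stripped skin with control cream, entered the fit and are given as levels beside the results. All 9 came from back skin of wild-type C57BL/6 (B6) mice and were taken 24 h after treatment. Tape stripping pulls off the outermost layers of the epidermis with adhesive tape, and graphene oxide is an oxidised form of single-layer carbon. The NGO dose was 50 µg per mouse, given in a cream volume of 100 µL. The protocol puts cream on stripped areas alone, while the unstripped samples carry the label control cream, so whether cream touched the unstripped skin cannot be told from the labels. No group of unstripped skin with NGO cream was analysed here, so in this comparison stripping and NGO cream cannot be told apart. Nothing in the labels says that the replicates came from separate animals, and p-values therefore measure the spread between these libraries, which may be technical. The question the comparison answers is how far stripped skin under NGO cream differed, at 24 h, from skin without the injury.

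The epidermis renews itself from a basal layer of dividing keratinocytes marked by the keratins Krt5, Krt14 and Krt15. Cells that leave this layer switch to Krt1 and Krt10, and then build the cornified envelope, the protein shell of the dead surface cells. When the barrier is broken, keratinocytes make the wound keratins Krt6 and Krt16 and release chemokines and alarm proteins that draw in neutrophils and monocytes. Mouse back skin lies on a fat layer and a thin sheet of skeletal muscle, the panniculus carnosus.

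Of 13740 genes tested, 345 differed between NGO-treated and unstripped skin at an adjusted p under 0.05 in edgeR's quasi-likelihood test, which is 2.51% of the genes tested. In NGO-treated skin 283 were higher (2.06%) and 62 were lower (0.451%). The counts of list members given below stand beside these shares. The lists were chosen with earlier results of these data known, so their counts are descriptive. All 345 had groups that did not overlap. Among all tested genes, 1629 (11.9%) had each NGO-treated library above each unstripped library and 1975 (14.4%) had each one below. The median log2 fold change of all tested genes was -0.074. At least 4-fold differences made up 244 of the 283 rises and 37 of the 62 falls. At an unadjusted p under 0.05 there were 1609 genes. Of the calls, 176 (158 higher and 18 lower) stood in each of the 9 fits that left out 1 library. The total fell to 214 without unstripped library 2 and to 229 without NGO-treated library 3. The count of genes lower was 29 without unstripped library 2 or 3, 27 without NGO-treated library 2, 28 without NGO-treated library 3, and 121 without stripped control library 1.

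**Figure D1:**
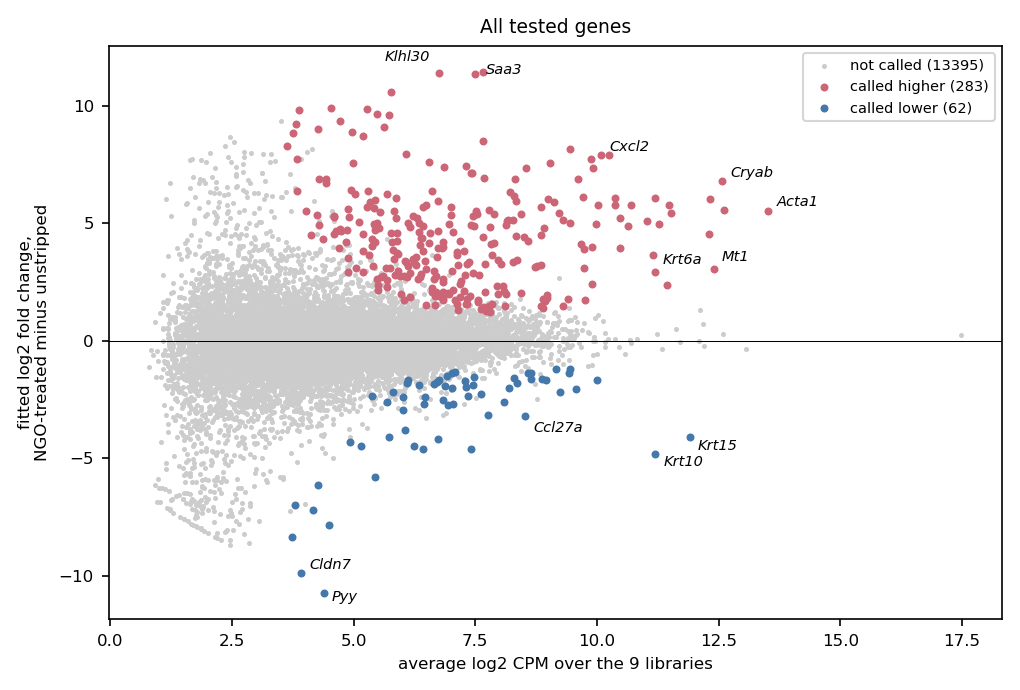
Fitted log2 fold change (NGO-treated minus unstripped, vertical axis) against average log2 CPM, the counts scaled to a common library size, over the 9 libraries (horizontal axis), with 1 point for each of the 13740 tested genes. Red points are the 283 genes called higher and blue points the 62 called lower, and named points include Cxcl2, Saa3, Krt6a and Mt1 above the line and Krt10, Krt15 and Ccl27a below it.

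Promoters of 3 genes are shown, 1 for each of 3 gene groups described next: a chemokine that rose, a muscle gene that rose and a keratin that fell. Each is the 250 bases before the start of the gene in RefSeq (GRCm38.p6, the assembly also called mm10), read 5′ to 3′ on the strand of the gene. For Cxcl2 and Acta1 this start differs from that in the GENCODE coordinates given below, and the Cxcl2 window reaches past its GENCODE start. Distances are from the RefSeq start. Capitals mark matches to 1 motif, searched on both strands. For Cxcl2 (chr5:90903649-90903898, plus strand) the motif was the NF-kB site (GGG, any 2 bases, TTTCC), which matched at 97 and 78 bases before the start. For Acta1 (chr8:123894776-123895025, minus strand) it was the CArG box, the site of serum response factor, which matched at 73 bases before the start. For Krt10 (chr11:99389365-99389614, minus strand) it was the C/EBP site TTNNGCAAT, with a match at 119 bases before the start. Of 32851 RefSeq windows of this length, 1.41% held the first motif, 1.47% the second and 1.93% the third. The matches describe the sequence and say nothing of binding in these samples.
Cxcl2: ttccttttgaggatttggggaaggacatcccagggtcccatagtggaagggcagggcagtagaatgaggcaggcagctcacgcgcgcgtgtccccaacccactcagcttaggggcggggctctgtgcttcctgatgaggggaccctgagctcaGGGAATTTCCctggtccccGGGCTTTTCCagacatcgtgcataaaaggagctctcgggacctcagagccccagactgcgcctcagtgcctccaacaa
Acta1: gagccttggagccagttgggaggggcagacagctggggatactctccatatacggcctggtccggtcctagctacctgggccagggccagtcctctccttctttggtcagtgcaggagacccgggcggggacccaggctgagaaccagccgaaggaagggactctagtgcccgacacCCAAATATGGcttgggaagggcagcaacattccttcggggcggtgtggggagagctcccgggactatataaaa
Krt10: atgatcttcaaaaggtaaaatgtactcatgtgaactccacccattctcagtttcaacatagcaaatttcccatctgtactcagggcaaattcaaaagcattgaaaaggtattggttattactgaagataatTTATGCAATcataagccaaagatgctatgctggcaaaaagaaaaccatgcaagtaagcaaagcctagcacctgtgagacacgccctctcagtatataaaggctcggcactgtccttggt

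The chemokine, cytokine and alarm protein genes Cxcl2, Cxcl5, Ccl3, Ccl6, Il1b, S100a8, S100a9 and Saa3 all rose in NGO-treated against unstripped skin at 24 h, from 17.3-fold for Il1b upwards, and no NGO-treated library overlapped an unstripped one. Levels in stripped control skin were higher still for Cxcl2, Cxcl5, Il1b, S100a8, S100a9 and Saa3 (edgeR adjusted p from 0.00572 for Cxcl2 to 0.0417 for Cxcl5). Of the 6 tested genes for chemokines that attract neutrophils and their receptor, 2 rose and 0 fell, against the 2.06% of all genes that rose. Of 7 tested CC chemokine genes of myeloid cells 4 rose, and of 16 alarmin, acute-phase and antimicrobial genes 6 rose, with 0 falling in each list. The CC chemokine count was 2 without unstripped library 1 or NGO-treated library 2.

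Cxcl2, a ligand of the neutrophil receptor Cxcr2 (chromosome 5, 90903871 to 90905938), read 0.684, 0.879 and 2.64 CPM (counts scaled to a common library size) in the unstripped libraries and 222, 612 and 226 CPM in the NGO-treated libraries. Each NGO-treated library stood far above each unstripped one. The difference was 7.92 ± 0.68 on the log2 scale (SE, n = 3 and 3, edgeR adjusted p = 7.47e-05), or 242-fold. The stripped control libraries read 2842, 4224 and 1601 CPM. Cxcl5, the neutrophil chemokine gene nearby (chromosome 5, 90759360 to 90761624), had no count in any unstripped library and read 56.5, 201 and 42.7 CPM with NGO. With unstripped skin set to a floor of 3 counts over the group, Cxcl5 was at least 325-fold higher (edgeR adjusted p = 0.000363). The other 4 tested members did not pass. Cxcl1, another Cxcr2 ligand, read 0, 0 and 4.69 CPM in unstripped and 16.2, 17.5 and 13.6 CPM in NGO-treated skin (edgeR adjusted p = 0.107). Without unstripped library 3, which held the one value above 0, Cxcl1 was called (0.000718).

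Among the CC chemokines, which attract monocytes and other myeloid cells, Ccl3 had no count in unstripped skin and read 6.01, 41.9 and 11.2 CPM with NGO, at least 64.0-fold higher (edgeR adjusted p = 0.00421). Ccl6 went from 9.58, 2.35 and 1.76 CPM to 123, 168 and 258 CPM, a difference of 5.34 ± 0.63 (adjusted p = 0.00048). In stripped control skin Ccl6 averaged 194 ± 55.2 CPM (SD, n = 3), beside 183 ± 68.6 CPM with NGO. Ccl4 rose by 4.43 ± 0.90 (adjusted p = 0.0158) and was lost without unstripped library 1 (0.0745) or NGO-treated library 2 (0.0833), and with no filter on low counts (0.223). Ccl9, a member named with its values known, rose by 4.95 ± 1.09 (adjusted p = 0.0261) and was lost without any 1 of the unstripped libraries, stripped control library 2, or NGO-treated library 2 or 3 (up to 0.142).

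S100a8 and S100a9 encode the 2 subunits of calprotectin, an alarm protein abundant in neutrophils and in stressed keratinocytes. S100a9 (chromosome 3, 90692632 to 90695721) read 2.05, 2.35 and 2.35 CPM in unstripped and 244, 868 and 520 CPM in NGO-treated skin. That is a rise of 7.89 ± 0.64 (edgeR adjusted p = 7.47e-05), or 238-fold. S100a8, beside it on chromosome 3, rose by 7.35 ± 0.77 (adjusted p = 0.00026). Saa3, an acute-phase gene (chromosome 7, 46711998 to 46715700), had no count in unstripped skin and read 97.6, 93.9 and 88.9 CPM with NGO, at least 304-fold higher (adjusted p = 7.47e-05). The NGO-treated values of Saa3 lay close together, at 93.5 ± 4.39 CPM (SD, n = 3). Hp, which encodes the haemoglobin-binding protein haptoglobin, rose by 4.87 ± 0.43, Lcn2, which encodes an iron-withholding antibacterial protein, by 5.64 ± 0.83, and Slpi, which encodes a protease inhibitor, by 5.42 ± 0.89. These 6 calls stood in each of the 9 fits that left out 1 library, and Slpi was lost with no filter on low counts (0.0986). Serpina3n, an acute-phase protease inhibitor gene outside the lists, averaged 3.18 ± 2.15 CPM in unstripped, 120 ± 34.4 CPM in NGO-treated and 111 ± 9.64 CPM in stripped control skin (SD, n = 3). The median log2 fold change of the 16 genes was 5.02, or 4.29 with the 3 members at 0 in a whole group set to their bound.

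Il1b, the gene of the fever cytokine interleukin-1 beta (chromosome 2, 129364570 to 129371139), was the single member of 10 tested interleukin-1 family genes to pass. It read 5.47, 5.28 and 7.92 CPM in unstripped and 68.8, 176 and 80.6 CPM in NGO-treated skin, a rise of 4.12 ± 0.51 (edgeR adjusted p = 0.00069). The family's receptor antagonist gene Il1rn averaged 45.4 ± 10.4 CPM and 37.6 ± 14.5 CPM (adjusted p = 0.958), and the alarmin gene Il33 68.9 ± 16.9 CPM and 80.2 ± 15.5 CPM (0.975). The list's median log2 fold change was -0.03. Of 15 tested genes of the interleukin-6, interleukin-20 and related cytokine list 2 rose, Il24 and Il19, both of the interleukin-20 group that acts on keratinocytes. Il24 rose by 4.67 ± 1.07 (adjusted p = 0.0349) and Il19, from no counts, by at least 35.6-fold (0.0421). Il24 was lost without any 1 of the unstripped or NGO-treated libraries (up to 0.164) and Il19 in 7 of the 9 fits, all but those without stripped control library 1 or NGO-treated library 1 (up to 0.159). Stat3, the transcription factor that interleukin-6 cytokines activate, did not pass (0.47 ± 0.31, adjusted p = 0.69), nor did its target Socs3 (1.16 ± 0.47, 0.327).

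**Figure D2:**
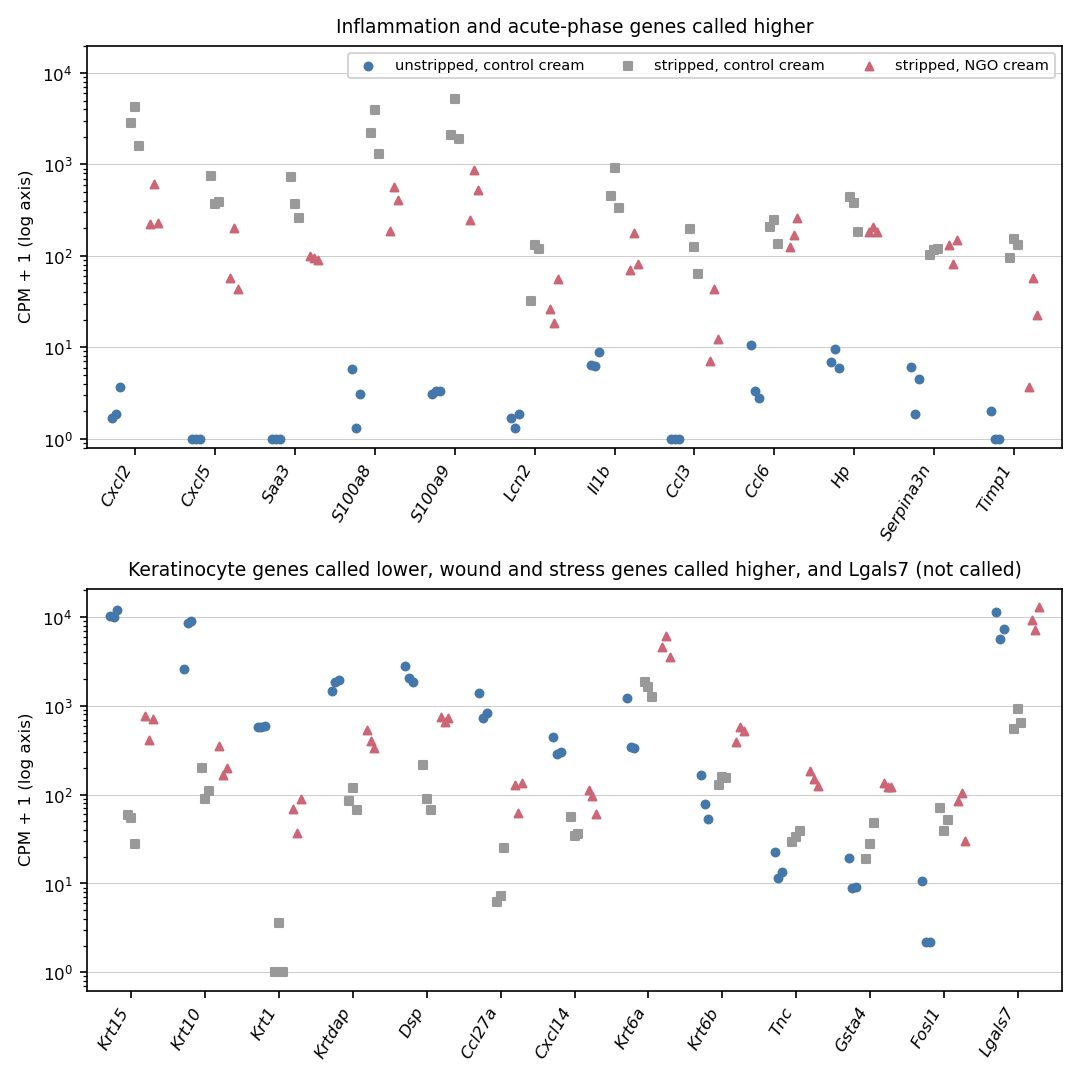
CPM plus 1 (vertical log axis) of named genes (horizontal axis), with 1 point per library: blue circles for unstripped skin with control cream, grey squares for stripped skin with control cream and red triangles for stripped skin with NGO cream. In the upper panel the NGO-treated points lie above all unstripped points. In the lower panel they lie below them for Krt15 to Cxcl14, above them for Krt6a to Fosl1 and among them for Lgals7.

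Of 20 tested neutrophil markers 5 rose and 0 fell, beside 2.06% and 0.451% of all genes tested. Hdc, which makes histamine and is strongly expressed in neutrophils and mast cells, rose by 4.95 ± 0.56 (edgeR adjusted p = 0.000363), from 3.42, 4.10 and 2.35 CPM to 86.2, 156 and 64.7 CPM. Clec4d, a C-type lectin receptor gene, had no count in unstripped skin and was at least 107-fold higher (adjusted p = 0.00209). Retnlg, a resistin-like gene of neutrophils, rose by 6.36 ± 1.14 (0.00734, and 0.0819 with no filter on low counts), and Gm5483, a stefin gene, by at least 48.3-fold (0.00811). The stefin gene BC100530, chosen with its values known, averaged 496 ± 321 CPM in unstripped, 1636 ± 226 CPM in NGO-treated and 441 ± 101 CPM in stripped control skin. Its call (0.0354) was lost without unstripped library 2 or 3 or any 1 of the NGO-treated libraries (up to 0.2). Elane and Mpo, granule genes of immature neutrophils, were at 0 in all 9 libraries. Summed over the list, neutrophil markers made up 0.0689% to 0.136% of an unstripped, 0.176% to 0.294% of an NGO-treated and 0.0973% to 0.216% of a stripped control library. BC100530 held most of the sum in unstripped and NGO-treated skin, where the list averaged 830 ± 407 and 2286 ± 414 CPM. It held a smaller part in stripped control skin, where the list averaged 1939 ± 710 CPM. Without BC100530 the list mean was higher in stripped control than in NGO-treated skin. The order of the NGO-treated and stripped control sums therefore rests on this gene and does not rank these groups by neutrophil content. In whole tissue, more cells of a type and more RNA per cell cannot be told apart.

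Of 23 tested macrophage and monocyte markers 1 rose (4.35%, beside 2.06% of all genes tested). This was the endotoxin co-receptor gene Cd14 (4.88 ± 1.10, edgeR adjusted p = 0.0309). It was lost without unstripped library 1 or 2 or NGO-treated library 2 (up to 0.158), with no filter on low counts (0.25) and in a fit of the 2 groups alone (0.0751). Cd68 averaged 6.94 ± 3.54 CPM and 36.3 ± 13.7 CPM (adjusted p = 0.0578) and was called without stripped control library 1 (0.0133). Of 12 Langerhans cell, dendritic cell and class II genes 0 passed, with a median log2 fold change of -1.32. Their class II gene H2-Ab1 read 248, 227 and 209 CPM in unstripped and 112, 95.5 and 29.5 CPM in NGO-treated skin, without overlap (-1.53 ± 0.52, adjusted p = 0.204). Of 8 tested T cell and lymphocyte markers and 1 mast cell marker 0 passed. Of 25 interferon-stimulated genes 1 rose (4%), the regulator Irf7 (4.50 ± 1.07, adjusted p = 0.0411). Irf7 was lost without any 1 of the unstripped libraries or NGO-treated library 2 or 3 (up to 0.227).

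The wound keratin genes Krt6a and Krt6b and the wound matrix gene Tnc rose, while Krt16 and Krt17 did not pass, and Krt6b, Tnc and the detoxification gene Gsta4 were higher in NGO-treated skin than in either other group. Krt6a and Krt6b encode keratins that suprabasal cells make after injury. Krt6a (chromosome 15, 101689910 to 101694307) read 1215, 344 and 332 CPM in unstripped and 4610, 6139 and 3543 CPM in NGO-treated skin, a rise of 2.92 ± 0.48 (edgeR adjusted p = 0.00434) or 7.56-fold. Stripped control skin read 1872, 1645 and 1268 CPM, below each NGO-treated library, and that difference did not pass (1.58 ± 0.46, adjusted p = 0.0649). Krt6b went from 98.1 ± 59.5 to 494 ± 92.0 CPM (2.33 ± 0.40, 0.00591), with 145 ± 16.3 CPM in stripped control skin (NGO-treated minus stripped control 1.76 ± 0.40, 0.025). Reads of these near-identical genes may have been split between them in counting. Both calls against unstripped skin stood in each of the 9 fits that left out 1 library.

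Of the 23 tested wound and stress keratin and barrier alarm genes 5 rose and 0 fell, with a median log2 fold change of 1.97. The 5 were 21.7% of the tested members, beside 2.06% of all genes tested. Without NGO-treated library 2 the count was 2, and with no filter on low counts it was 9. Lce3c and Lce3d, late envelope genes known to be induced by barrier damage, had no count in unstripped skin, and the differences were at least 104-fold and 110-fold (edgeR adjusted p = 0.00734 and 0.0145). Lce3d was lost without unstripped library 1 (0.0509) or NGO-treated library 2 (0.057), and Lce3c without NGO-treated library 2 (0.0563). Stfa1, a stefin gene chosen with its values known, rose by 1.97 ± 0.43 (0.025) and was lost without unstripped library 2 or 3 or NGO-treated library 1 or 2 (up to 0.142). The wound keratins Krt16 and Krt17 did not pass. Krt16 read 307, 127 and 101 CPM in unstripped and 352, 447 and 233 CPM in NGO-treated skin, with overlap (0.95 ± 0.45, 0.449). Krt17 averaged 655 ± 338 CPM and 604 ± 210 CPM (-0.12 ± 0.38, 0.99), and its sign turned without unstripped library 1 (0.38) or NGO-treated library 3 (0.14). The list took 0.149% to 0.378% of counts in unstripped, 0.51% to 1.04% in NGO-treated and 0.177% to 0.314% in stripped control libraries.

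Tnc, which encodes the wound matrix protein tenascin-C (chromosome 4, 63959785 to 64047015), read 21.6, 10.6 and 12.3 CPM in unstripped and 184, 150 and 125 CPM in NGO-treated skin. It rose by 3.37 ± 0.45 (edgeR adjusted p = 0.00115), and stripped control skin read 28.3, 32.6 and 38.4 CPM. NGO-treated skin was above stripped control skin too (2.21 ± 0.43, adjusted p = 0.012). Of 26 tested matrix and protease genes 3 rose (11.5%, beside 2.06% of all genes tested) and 0 fell. Among the 3 were Tnc and the metalloproteinase inhibitor gene Timp1 (6.25 ± 1.20, 0.0108). Timp1 averaged 26.6 ± 26.9 CPM in NGO-treated skin beside 126 ± 29.2 CPM in stripped control skin. Gsta4, which encodes a glutathione transferase that clears lipid peroxidation products (chromosome 9, 78182774 to 78209349), read 18.1, 7.92 and 8.21 CPM in unstripped and 136, 121 and 120 CPM in NGO-treated skin (3.46 ± 0.54, 0.00319). Its stripped control mean was 30.7 ± 15.0 CPM (NGO-treated minus stripped control 2.03 ± 0.51, 0.0382). Akr1b8, an aldo-keto reductase gene, was the other of 29 NRF2 and detoxification genes to rise (3.16 ± 0.69, 0.0251), and it was lost without unstripped library 2 or 3 or any 1 of the NGO-treated libraries (up to 0.137).

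None of 17 tested EGF receptor ligand and growth factor genes passed. Hbegf, a keratinocyte growth factor gene, read 122, 37.8 and 54.5 CPM in unstripped and 264, 215 and 150 CPM in NGO-treated skin (1.55 ± 0.41, edgeR adjusted p = 0.0706), and was called without unstripped library 1 (0.0114) or stripped control library 1 (0.0383). Of 26 immediate early genes 2 rose and 2 fell. Ier3 rose by 2.80 ± 0.46 (adjusted p = 0.00421), and Fosl1, an AP-1 subunit gene of migrating keratinocytes, by 4.19 ± 0.85 (0.0152). Fosl1 was lost without unstripped library 2 (0.0662) or 3 (0.0599) or NGO-treated library 2 (0.0804). Fos, another AP-1 subunit gene, read 167, 65.7 and 78.3 CPM in unstripped and 17.7, 23.0 and 18.2 CPM in NGO-treated skin (-2.40 ± 0.46, 0.0112). Its stripped control mean was 67.7 ± 8.98 CPM. The Fos call was lost without unstripped library 1 (0.0799) or NGO-treated library 1 (0.0509) or 3 (0.0584). Nfkbie, which encodes an inhibitor of NF-kB, had no count in NGO-treated skin, against 3.42, 4.69 and 7.62 CPM in unstripped and 79.2, 14.6 and 49.2 CPM in stripped control skin. It was at least 24.0-fold lower than in unstripped skin (0.0191) and was lost without NGO-treated library 2 (0.0609) or 3 (0.0727) and in a fit of the 2 groups alone (0.116). It was the single member of 17 NF-kB genes to pass. Nfkbia, the main inhibitor gene, averaged 587 ± 60.9 CPM and 814 ± 225 CPM (0.629).

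Krt10, Krt1 and Krtdap, genes of differentiating keratinocytes, fell in NGO-treated against unstripped skin, and of the basal genes Krt15 alone passed. Of 25 tested suprabasal genes 8 fell and 0 rose, against the 0.451% of all genes that fell, with a median log2 fold change of -1.29. The other 17 did not pass. The count was 4 without unstripped library 1 or 2 or NGO-treated library 3, 3 without unstripped library 3, 5 without NGO-treated library 1 and 2 without NGO-treated library 2. Of 19 tested basal genes 1 fell and 0 rose, with a median of -0.03. In stripped control against unstripped skin the medians of these lists were -3.46 and -1.63. The summed share of counts was 1.68% to 2.33% in unstripped, 0.414% to 0.653% in NGO-treated and 0.0675% to 0.143% in stripped control libraries for the suprabasal list. For the basal list it was 3.54% to 4.73%, 2.37% to 3.47% and 0.23% to 0.376%. In summed CPM the NGO-treated and unstripped basal values overlapped, at 21440 to 31280 and 30370 to 45270.

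Krt10, a keratin of differentiating cells (chromosome 11, 99385254 to 99389364), read 2594, 8449 and 8994 CPM in unstripped and 352, 164 and 200 CPM in NGO-treated skin. Unstripped library 1 was lower than the other unstripped libraries, yet all 3 were above each NGO-treated library. Krt10 fell by 4.81 ± 0.54 (edgeR adjusted p = 0.000363), a 28.0-fold difference. Its partner Krt1 (chromosome 15, 101845426 to 101850794) read 576, 577 and 590 CPM and 68.5, 35.7 and 88.5 CPM, a difference of -3.18 ± 0.59 (adjusted p = 0.00872), and was lost without NGO-treated library 2 (0.0664). In stripped control skin Krt1 read 0, 2.59 and 0 CPM. Krtdap, a gene of differentiating keratinocytes, fell by 2.04 ± 0.31 (0.0029) from 1761 ± 250 to 427 ± 103 CPM, beside 90.0 ± 26.4 CPM in stripped control skin.

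The other suprabasal members that fell were Klf4, Sbsn, Skint4, Dsp and Perp, the last 2 named with their values known. Klf4, a transcription factor gene of barrier formation, read 771, 696 and 710 CPM in unstripped and 323, 279 and 241 CPM in NGO-treated skin (-1.37 ± 0.27, edgeR adjusted p = 0.012). It was lost without unstripped library 2 or 3 or NGO-treated library 2 or 3 (up to 0.0748). The desmosome genes Dsp (-1.66 ± 0.39, 0.0392) and Perp (-1.36 ± 0.30, 0.0271) were lost without any 1 of the unstripped libraries or NGO-treated library 2 or 3, and Dsp also without NGO-treated library 1 (up to 0.196 and 0.163). Skint4 and Skint10 belong to a family of butyrophilin-like genes of keratinocytes with near-identical members. Skint4 read 28.7, 46.9 and 42.8 CPM in unstripped and 0.3, 0 and 0.496 CPM in NGO-treated skin (-6.99 ± 1.39, 0.0196), and was lost without any 1 of these 6 libraries (up to 0.168). Skint10 (-8.35 ± 1.58, 0.0144) was lost without any 1 of the unstripped libraries or NGO-treated library 2 or 3 (up to 0.118).

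Of 29 tested cornified envelope genes 3 fell and 0 rose: Krtdap, Sbsn and Calm4. The count was 6 without stripped control library 1, 5 without stripped control library 2 and 1 without NGO-treated library 2. Calm4, a calmodulin-like gene of differentiating keratinocytes, fell by 2.02 ± 0.38 (edgeR adjusted p = 0.0098), and was lost without NGO-treated library 2 (0.0667) or 3 (0.0517). Sbsn, which encodes suprabasin, fell by 1.68 ± 0.37 (0.0278), and was lost without unstripped library 1 or 3 or NGO-treated library 1 or 2 (up to 0.164). Flg2, a filaggrin-related gene, read 557, 413 and 396 CPM in unstripped and 91.6, 47.6 and 113 CPM in NGO-treated skin, without overlap, and did not pass (-2.44 ± 0.73, 0.135). It was called without stripped control library 1 (0.0155) or 2 (0.0305), whose counts entered the spread shared by the 3 groups. The lipoxygenase gene Alox12e was the single member of 23 barrier lipid genes to pass (-3.78 ± 0.64, 0.00767), and Spink5, which encodes an inhibitor of desquamation proteases, of 17 desquamation genes (-1.79 ± 0.36, 0.0153). Alox12e was lost without unstripped library 1 (0.0568), and Spink5 without unstripped library 1 or NGO-treated library 1 or 2 (up to 0.109).

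Krt15, a basal keratin gene that also marks hair follicle stem cells (chromosome 11, 100131758 to 100135928), read 10380, 10010 and 12110 CPM in unstripped and 758, 413 and 717 CPM in NGO-treated skin. It fell by 4.11 ± 0.38 (edgeR adjusted p = 0.000115), or 17.2-fold, and stripped control skin read 58.6, 53.3 and 26.5 CPM. Krt14, the keratin of basal cells generally, read 12230, 4841 and 4406 CPM in unstripped and 8545, 4699 and 5132 CPM in NGO-treated skin. The Krt14 groups overlapped (-0.22 ± 0.41, adjusted p = 0.971), and the sign of the difference turned without unstripped library 1 (0.40). Lgals7, the galectin-7 gene of keratinocytes, also overlapped, at 8109 ± 2880 and 9798 ± 3022 CPM (0.27 ± 0.34, 0.928). In stripped control skin Krt14 averaged 833 ± 236 CPM and Lgals7 702 ± 199 CPM. A p that misses the threshold does not show that these levels were equal.

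None of 30 S-phase genes and none of 36 G2 and mitosis genes passed, with median log2 fold changes of 0.33 and 0.44. Top2a, which encodes a DNA topoisomerase of dividing cells, read 561, 263 and 214 CPM in unstripped and 492, 596 and 583 CPM in NGO-treated skin (0.69 ± 0.37, edgeR adjusted p = 0.546). The groups overlapped, since unstripped library 1 was above NGO-treated library 1. In stripped control skin Top2a averaged 43.2 ± 10.1 CPM. The G2 and mitosis list had a median of -2.73 in stripped control against unstripped skin.

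**Figure D3:**
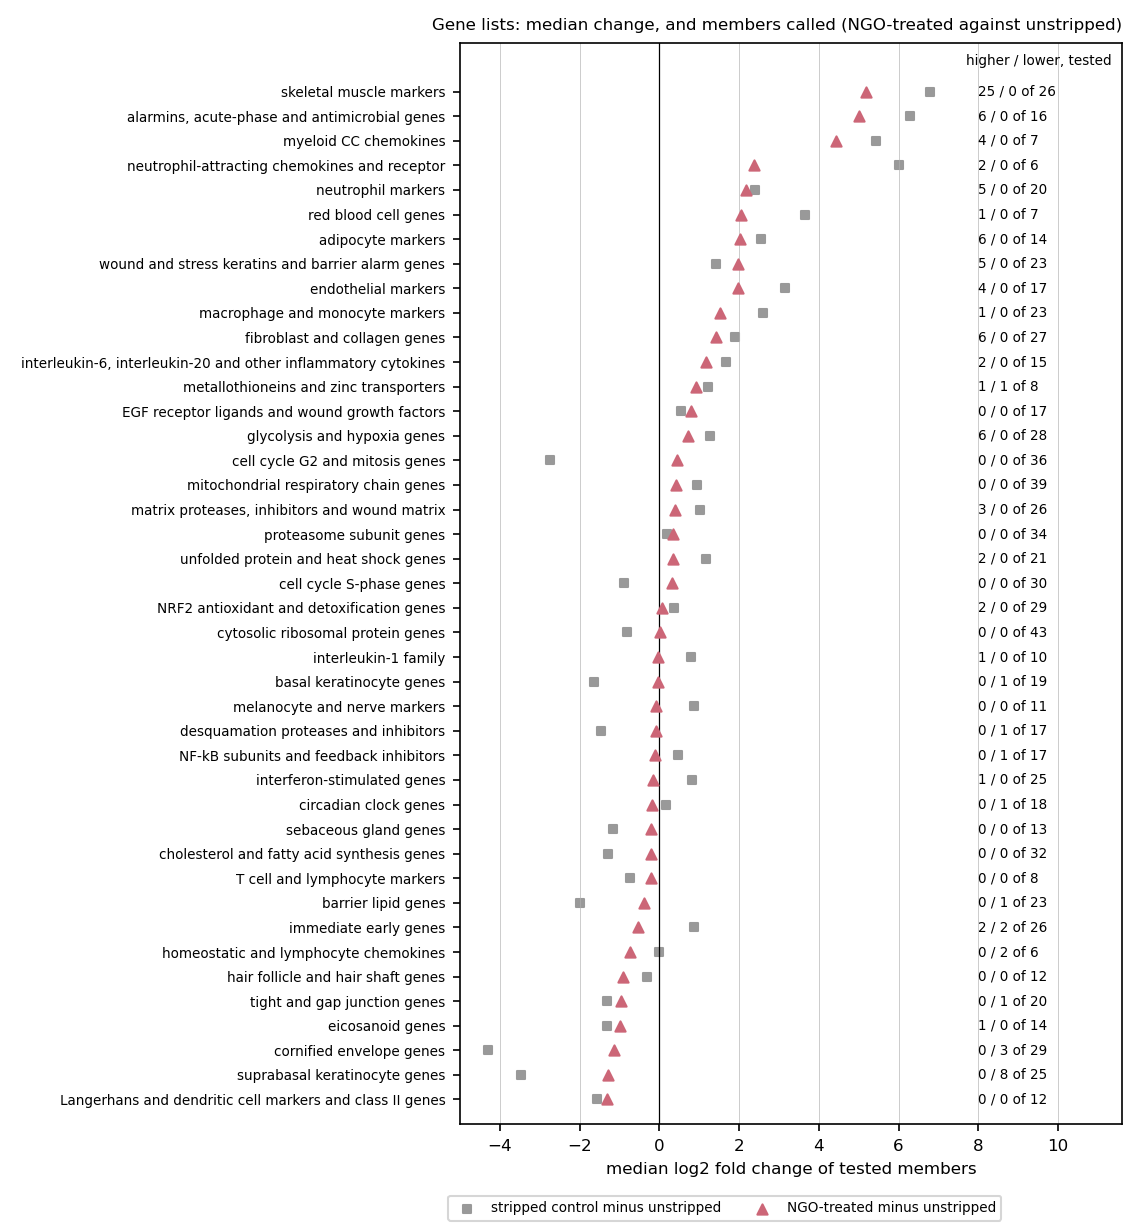
Median log2 fold change of the tested members (horizontal axis) of each of the 42 gene lists with at least 5 tested members (vertical axis). Red triangles stand for NGO-treated against unstripped skin and grey squares for stripped control against unstripped skin, which share the unstripped libraries, and the numbers at the right give the members called higher and lower in the first comparison. Skeletal muscle markers have the highest median with NGO (5.19) and Langerhans and dendritic cell markers the lowest (-1.32), and both cell cycle lists have red triangles above 0 and grey squares below it.

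Chemokines that resting keratinocytes make were lower in NGO-treated skin. Ccl27a, which draws skin-homing T cells (chromosome 4, 41769467 to 41774247), read 1382, 724 and 835 CPM in unstripped and 128, 60.8 and 134 CPM in NGO-treated skin. It fell by 3.19 ± 0.54 (edgeR adjusted p = 0.00544), and stripped control skin read 5.14, 6.14 and 24.3 CPM. Ccl27b (-4.11 ± 0.67, 0.00421) and Il11ra2 (-4.63 ± 0.57, 0.00064) lie in a duplicated region with near-identical copies of Ccl27a and Il11ra1, so reads may be shared among these genes. Il11ra2 read 538, 427 and 484 CPM in unstripped and 20.1, 17.0 and 21.2 CPM in NGO-treated skin. Cxcl14, a chemokine of resting epithelium (chromosome 13, 56288643 to 56296551), read 448, 285 and 301 CPM and 111, 94.3 and 59.4 CPM (-1.96 ± 0.37, 0.00932). Ccl27a and Cxcl14 were the 2 of 6 tested homeostatic and lymphocyte chemokine genes to fall, and 0 rose. Cxcl12, a stromal chemokine gene, read 20.9, 45.1 and 27.3 CPM in unstripped and 76.9, 90.9 and 71.8 CPM in NGO-treated skin (0.261). The calls of Ccl27a, Ccl27b, Il11ra2 and Cxcl14 stood in each of the 9 fits that left out 1 library.

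Other genes with the largest fitted falls were Pyy, Cldn7, Tap2, Mt4, Hlf and Igfbp3. Cldn7, a tight junction claudin gene (chromosome 11, 69964779 to 69967885), read 37.3, 41.6 and 21.7 CPM in unstripped skin and had no count in any NGO-treated library, at least 153-fold lower (edgeR adjusted p = 0.0123). Stripped control skin read 21.1, 0.646 and 9.59 CPM of Cldn7. It was the single member of 20 tight and gap junction genes to pass. Pyy, the peptide YY gene, read 129, 27.6 and 26.4 CPM in unstripped skin and was at 0 in all 6 stripped libraries, at least 279-fold lower with NGO (0.00693). It was lost without unstripped library 1 (0.128). Igfbp3, which encodes a binding protein of insulin-like growth factors, read 46.2, 311 and 463 CPM in unstripped and 8.71, 20.7 and 15.2 CPM in NGO-treated skin (-4.19 ± 0.69, 0.00434), and was not called by limma-voom (0.241). Hlf, a clock-controlled transcription factor gene and the single member of 18 clock genes to pass, fell by 4.32 ± 1.01 (0.0373), and was lost without any 1 of the unstripped libraries or NGO-treated library 1 or 3 (up to 0.175). Tap2, a peptide transporter gene of antigen presentation, read 2.05, 80.0 and 74.5 CPM in unstripped and 0, 1.38 and 0.662 CPM in NGO-treated skin (-6.15 ± 1.51, 0.0492). The Tap2 call was lost in 6 of the 9 fits, without unstripped library 2 or 3, stripped control library 3 or any 1 of the NGO-treated libraries (up to 0.283), and with other scalings of the libraries (0.0513 and 0.0501) or limma-voom (0.437).

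The metallothioneins, small proteins that bind zinc and copper, moved in opposite directions by gene. Mt1, the widely expressed form (chromosome 8, 94179082 to 94180327), read 848, 461 and 481 CPM in unstripped and 4643, 3896 and 6132 CPM in NGO-treated skin, a rise of 3.04 ± 0.43 (edgeR adjusted p = 0.00188). Mt4, the form of differentiating squamous epithelium (chromosome 8, 94137197 to 94139031), read 134, 128 and 107 CPM and 1.80, 0 and 4.47 CPM, a difference of -5.81 ± 1.13 (0.0116). The Mt4 call was lost without unstripped library 1 (0.0527) or NGO-treated library 1 (0.0581). Mt2 averaged 1448 ± 344 CPM and 3594 ± 598 CPM without overlap (1.31 ± 0.32, 0.0507), and was called without stripped control library 1 (0.0165). Of the 8 tested metallothionein and zinc transporter genes these were 1 rise and 1 fall. Stripped control skin averaged 10680 ± 5268 CPM of Mt1.

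Skeletal muscle genes rose in NGO-treated against unstripped skin. Of 26 tested skeletal muscle markers 25 rose and 0 fell, with a median log2 fold change of 5.19, while 2.06% of all genes tested rose. With no filter on low counts 7 members were called. The list took 0.135%, 0.0452% and 0.236% of counts in the unstripped libraries, 3.15%, 2.94% and 6.07% in the NGO-treated libraries and 5.53% to 12.4% in the stripped control libraries. Acta1, skeletal alpha-actin (chromosome 8, 123891769 to 123894751), read 204, 6.74 and 315 CPM in unstripped and 6675, 6337 and 11470 CPM in NGO-treated skin, a rise of 5.54 ± 0.94 (edgeR adjusted p = 0.00522). With no filter on low counts Acta1 (adjusted p = 0.129) and the muscle genes Ckm (0.0819), Myh4 (0.068) and Mb (0.0714) were not called. Casq1, the calcium store protein gene of fast fibres, rose by 6.93 ± 0.86, Actn3, an actin cross-linker gene of fast fibres, by 5.40 ± 0.57, and Tpm1, a tropomyosin gene, by 3.65 ± 0.46. The 1 marker that did not pass was Ryr1, a calcium channel gene (1.79 ± 0.48, 0.0808), which was called without stripped control library 1 (0.0353). Of the 28 markers in the files, Tnnt1 and Tnnc1, genes of slow fibres, were at 0 in unstripped skin and none was at 0 in NGO-treated skin.

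Several genes with the largest fitted rises are known from muscle. Klhl30 (chromosome 1, 91351016 to 91362416) had no count in unstripped skin and read 71.5, 41.0 and 172 CPM with NGO, at least 308-fold higher (edgeR adjusted p = 0.00069). Art1, Fitm1, Kcnj11, Asb2 and Hhatl likewise had no count without stripping, and with NGO they were at least 180-fold, 93.8-fold, 75.5-fold, 68.6-fold and 59.2-fold higher. Among 28 tested genes of glycolysis and hypoxia, 6 rose (21.4%, beside 2.06% of all genes tested) and 0 fell. Without NGO-treated library 3 the count was 3. Of the 6, Eno3 (5.14 ± 0.66) and Pgam2 (6.02 ± 0.93) are the muscle forms of their enzymes, and Eno3 is also counted in the muscle list. Hk2 (3.11 ± 0.53) is a hexokinase gene of muscle, fat and proliferating cells. The calls of Eno3, Pgam2 and Hk2 stood in each of the 9 fits that left out 1 library, and Pgam2 was lost with no filter on low counts (0.0964). The part that the muscle share of the libraries has in the other differences reported here was not tested. With library sizes taken without muscle, fat, hair and blood genes and without the ribosomal RNA precursor Rn45s, 347 genes were called, 285 higher and 62 lower. This setting changed the scaling alone and did not test that part.

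Of 14 tested adipocyte markers 6 rose, of 17 endothelial markers 4, of 27 fibroblast and collagen genes 6 and of 7 red blood cell genes 1, with 0 falling in each. The share of all genes tested that rose was 2.06%. Most members of each of these lists did not pass, and the fibroblast count was 2 without unstripped library 2 or 3 and 3 without NGO-treated library 2. Cfd, the complement factor D gene of fat cells (chromosome 10, 79890853 to 79892655), read 5.13, 7.33 and 3.23 CPM in unstripped and 265, 303 and 173 CPM in NGO-treated skin (5.55 ± 0.45, edgeR adjusted p = 7.47e-05). The fatty acid binding protein gene Fabp4 rose by 3.66 ± 0.38 and the lipid droplet gene Plin4 by 2.73 ± 0.45. Among endothelial markers the water channel gene Aqp1 rose by 3.05 ± 0.39, Plvap by 2.79 ± 0.47 and Egfl7 by 2.98 ± 0.53. Col4a2, a basement membrane collagen gene, rose by 2.75 ± 0.41 (0.00277) and Dcn, the decorin gene of dermal fibroblasts, by 2.96 ± 0.51 (0.00582). These 8 calls stood in each of the 9 fits. Col3a1, a collagen gene of the dermis, rose by 1.63 ± 0.31 (0.011) and was lost without unstripped library 2 (0.0543) or 3 (0.0735) or NGO-treated library 2 (0.0688). Hba-a1, a globin gene with a near-identical copy, rose by 2.04 ± 0.39 (0.0116) and was lost without unstripped library 2 or 3 or NGO-treated library 2 (up to 0.0715). The adipocyte list took 0.0279% to 0.0321% of the counts of an unstripped and 0.106% to 0.159% of those of an NGO-treated library. The endothelial list took 0.0225% to 0.0246% and 0.061% to 0.114%. The 6 adipocyte markers that rose include Car3, which is also on the skeletal muscle list and is counted there too.

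**Figure D4:**
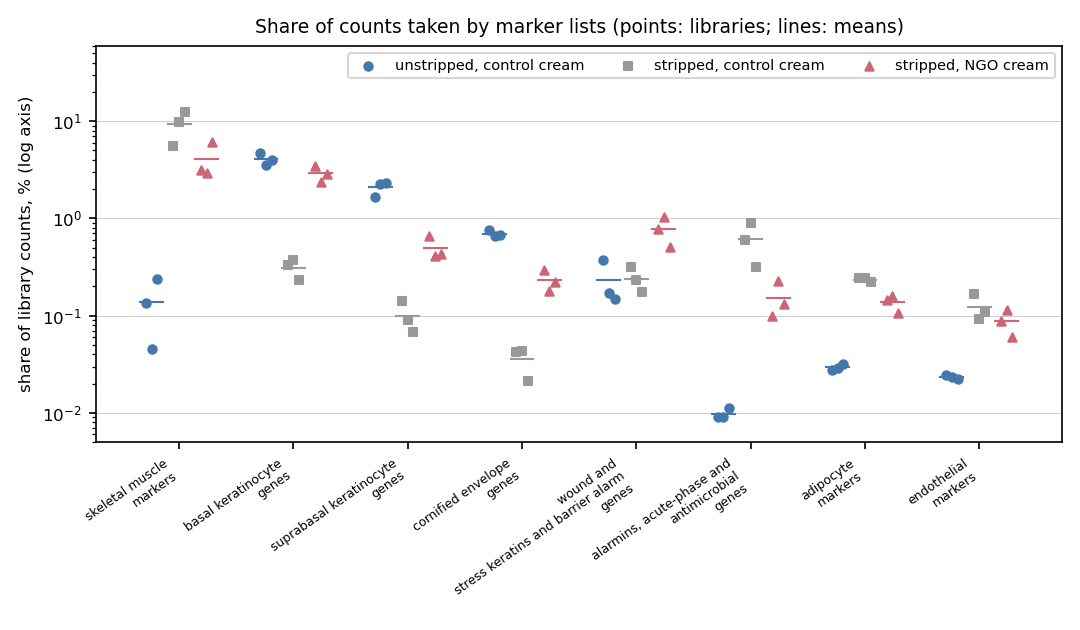
Share of each library's counts taken by 8 marker lists, in percent (vertical log axis), with 1 point per library and a line at the group mean: blue circles for unstripped, grey squares for stripped control and red triangles for NGO-treated skin. Muscle markers take 0.0452% to 0.236% of the unstripped libraries but 2.94% to 6.07% of the NGO-treated ones. For basal keratinocyte genes the NGO-treated points (2.37% to 3.47%) all lie below the unstripped ones (3.54% to 4.73%). These are shares of raw counts, and in summed CPM the groups overlap, at 21440 to 31280 and 30370 to 45270.

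Beside those named above, lists in which 0 members passed were those of cholesterol and fatty acid synthesis (32 tested), the sebaceous gland (13), the hair follicle (12), melanocytes and nerve (11), cytosolic ribosomal proteins (43, median log2 fold change 0.005), the proteasome (34) and the respiratory chain (39). Of 21 heat shock and unfolded protein genes 2 rose. These were Atf4 (1.79 ± 0.38, edgeR adjusted p = 0.0226), lost without unstripped library 2 or 3 or any 1 of the NGO-treated libraries (up to 0.146), and Bag3 (1.55 ± 0.36, 0.0378), lost in 7 of the 9 fits, all but those without stripped control library 1 or 3 (up to 0.214). Of 14 eicosanoid genes 1 rose, the phospholipase gene Pla2g4e, from 3.08, 3.52 and 1.17 CPM to 89.5, 68.6 and 26.1 CPM (4.55 ± 0.84, 0.00832). In all, 84 of the 283 genes that rose and 19 of the 62 that fell belong to a list.

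The libraries differed in make-up beyond these genes. Total counts ranged from 2794791 to 2937738 for unstripped skin, and from 2997238 to 6303322 with NGO. Rn45s, a ribosomal RNA precursor, took 13.2% to 16% and 9.35% to 21% of them, and 15605 ± 918 and 14123 ± 271 genes were detected (SD, n = 3). The biological coefficient of variation was 0.463 among unstripped, 0.835 among NGO-treated and 1.1 among stripped control libraries. When replicates were set side by side, a count of 0 in 1 of them fell on 0.0207% to 0.137% of genes averaging at least 10 CPM in unstripped, on 0.874% to 1.14% in NGO-treated and on 4% to 7.51% in stripped control skin. The part of this spread in the differences was not tested. In the same fit 532 genes were higher and 162 lower in NGO-treated than in stripped control skin, and 820 were higher and 1050 lower in stripped control than in unstripped skin. These comparisons share libraries with the one reported here.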

How the data were processed

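RNA of 9 mouse back skin samples (500 ng each) was made into 3′ end libraries with the QuantSeq kit, per the labels' protocols. The authors deposited raw read counts per gene symbol. The submitters' processing notes name Bowtie2, bedtools and mm10. How strand and reads matching several genes were handled is not stated there or in the labels. Each file held 23282 entries with 23238 unique symbols, of which 95.5% matched GENCODE M21, and 44 repeat entries were kept apart.

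Counts were tested with edgeR 4.0.16 (R 4.3.3) by its robust quasi-likelihood test, with TMM factors, filterByExpr and all 9 libraries in 1 fit. P-values were adjusted by Benjamini-Hochberg over the genes tested, with calls at 0.05. With 3 libraries against 3, an exact permutation test of a single gene could not have passed that threshold. Library totals lay between 2019739 and 6303322 counts. The floor used for genes at 0, 3 counts in a group, equalled 0.308 CPM in unstripped and 0.219 CPM in NGO-treated skin. The SE values come from the fit and include the spread between libraries, whereas the floors cover counting error only.

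The members and the 43 gene lists were chosen with earlier results of these data known. Named genes were, among calls, the 12 largest fitted rises and the 12 largest falls (average log2 CPM of at least 3, groups apart, no predicted symbol), and from each list the 3 called members with the smallest p and the 2 most abundant members not called. S100a8, Lcn2, Slpi, Serpina3n, Ccl9, Gm5483, BC100530, Fosl1, Stfa1, Dsp, Perp, Acta1, Ckm, Myh4, Mb, Elane and Mpo were added with their values known. A gene that this rule names is not reported here. Coordinates are those of GENCODE M21 (mm10). Alternatives were other scalings, filters, tools (DESeq2 1.42.0, limma 3.58.1), fits and left-out libraries. The test was checked on simulated counts with an equal spread in the 3 groups, so the check does not cover the unequal spreads of these data.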

Additional observations from a re-analysis of the deposited data

How the results depend on the processing

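Against 345 calls (283 higher, 62 lower), DESeq2 called 756 (512 and 244), limma-voom 1352 (869 and 483) and a fit of the 2 groups alone 602 (372 and 230). The share of calls that were higher was then 67.7%, 64.3% and 61.8%, beside 82.0% in the edgeR fit of all 9 libraries. A test against a 1.5-fold change left 228 higher and 30 lower. RLE and upper-quartile scaling, both filters on low counts and the library sizes without muscle, fat, hair and blood genes kept the total within 1.5 times. Leaving out 1 library gave 214 to 495 calls, 185 to 374 higher and 27 to 121 lower. Named genes that were called kept their sign in every setting run. Among those not called, Krt14 turned with limma-voom (0.26) and ranged from -0.55 to 0.40 with a library left out, and Krt17 turned with limma-voom (0.23) and ranged from -0.35 to 0.38. The cause of these shifts was not tested. With the replicate number as a block, 313 genes were called (259 higher, 54 lower), 293 of them among the 345. Ccl9, Il24, Il19, Irf7, Hlf, Skint4, Skint10, H2-D1, H2-Q9 and Notch1 lost their call with the block, while Mt2 and Hbegf gained one. The correlations of same-numbered libraries were 0.039, 0.052 and -0.001, and not every library correlated best with its own number. With 3 libraries a group, these values cannot tell whether same-numbered libraries share an animal or a day. A gene absent from unstripped skin could hold up to 0.308 CPM there at this depth.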

Other observations

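Some genes outside the lists were chosen after their values were seen. The class I antigen presentation genes H2-K1, H2-D1 and H2-Q9 were lower in NGO-treated than in unstripped skin. H2-K1 read 1361, 1259 and 1314 CPM in unstripped and 717, 543 and 449 CPM in NGO-treated skin (-1.20 ± 0.29, SE, edgeR adjusted p = 0.0435). H2-D1 differed by -1.20 ± 0.29 (0.0466) and H2-Q9 by -1.39 ± 0.32 (0.0368). The groups did not overlap for any of the 3, yet these calls were lost in 6 of the 9 fits with a library left out for H2-K1 and H2-Q9 (up to 0.201 and 0.211) and in 7 for H2-D1 (up to 0.292). Reads of class I genes may be shared among them.

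Notch1, a receptor gene that drives keratinocytes into differentiation, read 141, 158 and 210 CPM in unstripped and 66.4, 32.2 and 37.4 CPM in NGO-treated skin (-1.91 ± 0.43, edgeR adjusted p = 0.0318). Its target gene Hes1 read 101, 227 and 221 CPM and 49.0, 55.0 and 49.5 CPM (-1.84 ± 0.41, 0.0304). Both were lost in 5 of the 9 fits (up to 0.21 and 0.182). Acta2, the smooth muscle actin gene, read 39.0, 58.6 and 45.7 CPM in unstripped, 226, 188 and 178 CPM in NGO-treated and 118, 134 and 119 CPM in stripped control skin (2.04 ± 0.33 against unstripped, 0.00356). Odc1, which encodes the first enzyme of polyamine synthesis, read 66.0, 54.5 and 41.3 CPM in unstripped and 299, 352 and 158 CPM in NGO-treated skin (2.32 ± 0.37, 0.00356). The calls of Acta2 and Odc1 stood in each of the 9 fits.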
